A study of Oryza sativa Japonica Group with 6 samples.

Results

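The prolamins of the rice grain were followed as mRNA levels in 10 genes named by locus identifier. By the molecular mass of the protein on gels, 7 of these are 13 kDa prolamins (LOC_Os05g26350, LOC_Os05g26460, LOC_Os05g26720, LOC_Os05g26750, LOC_Os05g26770, LOC_Os07g10570 and LOC_Os07g10580), 1 is a 10 kDa prolamin (LOC_Os03g55730) and 2 are 16 kDa prolamins (LOC_Os06g31060 and LOC_Os06g31070). A row was found for 7 of the 10 genes among the 29907 mRNA rows of the table. LOC_Os05g26350, LOC_Os05g26460 and LOC_Os07g10570, all of the 13 kDa class, were not matched to a row and are not analysed here. The identifiers place the genes on chromosomes 3, 5, 6 and 7. The pairing of identifier and size class comes from rice nomenclature and was not checked against a sequence.

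All samples were endosperm of NingJing1, a Japonica cultivar, taken 10 days after pollination. Field-grown plants at booting had been put in a growth chamber at either 36 °C (day) and 33 °C (night), the high temperature group of 3 samples, or 28 °C (day) and 25 °C (night), the normal temperature group of 3 samples. The labels do not say whether samples within a group are different plants, so the p-values below reflect the spread between samples only, which may be technical. Levels are FPKM, fragment counts divided by transcript length and by library size, and so are per length and can be set against each other between genes. Sequencing depth is unknown, so no counting interval is given.

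Prolamins are alcohol-soluble storage proteins of cereal seeds. In rice they are made on the rough endoplasmic reticulum and stay there, packed into protein bodies that bud from it, whereas glutelins, the main storage proteins of rice, travel on to vacuolar protein bodies. The 10 kDa and 16 kDa classes are known as the sulphur-rich prolamins, and the 13 kDa class is a large family of closely related genes, many of them in tandem clusters. Near-identical copies share reads, so the level of a single copy is uncertain wherever reads could be split among them.

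Among the 7 prolamin genes with a row, most mRNA came from a single gene of the 16 kDa class and a single gene of the 13 kDa class. LOC_Os06g31070 and LOC_Os07g10580 ranked 11 and 15 of all mRNA rows by mean FPKM, and together they held 97.8% to 99.7% of the summed prolamin FPKM in each sample. The other 5 rows summed to between 48.6 and 214 FPKM under heat and between 25.2 and 63.3 FPKM in the normal temperature samples. In high temperature the level of LOC_Os06g31070 lay above and that of LOC_Os07g10580 below all normal temperature samples.

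LOC_Os06g31070, the abundant 16 kDa gene, had 6550.03, 7308.85 and 6416.55 FPKM in the high temperature samples. In normal temperature it had 95.03, 4442.66 and 4212.87 FPKM in samples 1, 2 and 3. The groups did not overlap, but normal temperature sample 1 stood far from the other two of its group, at 2.26% of the group median. With all 6 samples the log2 fold change was 2.47 with a standard error of 1.58 and did not pass the test (limma, adjusted p = 0.287). Without normal temperature sample 1 it was 0.64, from 4328 to 6758 FPKM on average, and passed (limma, adjusted p = 0.00649). The direction was the same in both, while the size rested on 1 library.

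**Figure D1:**
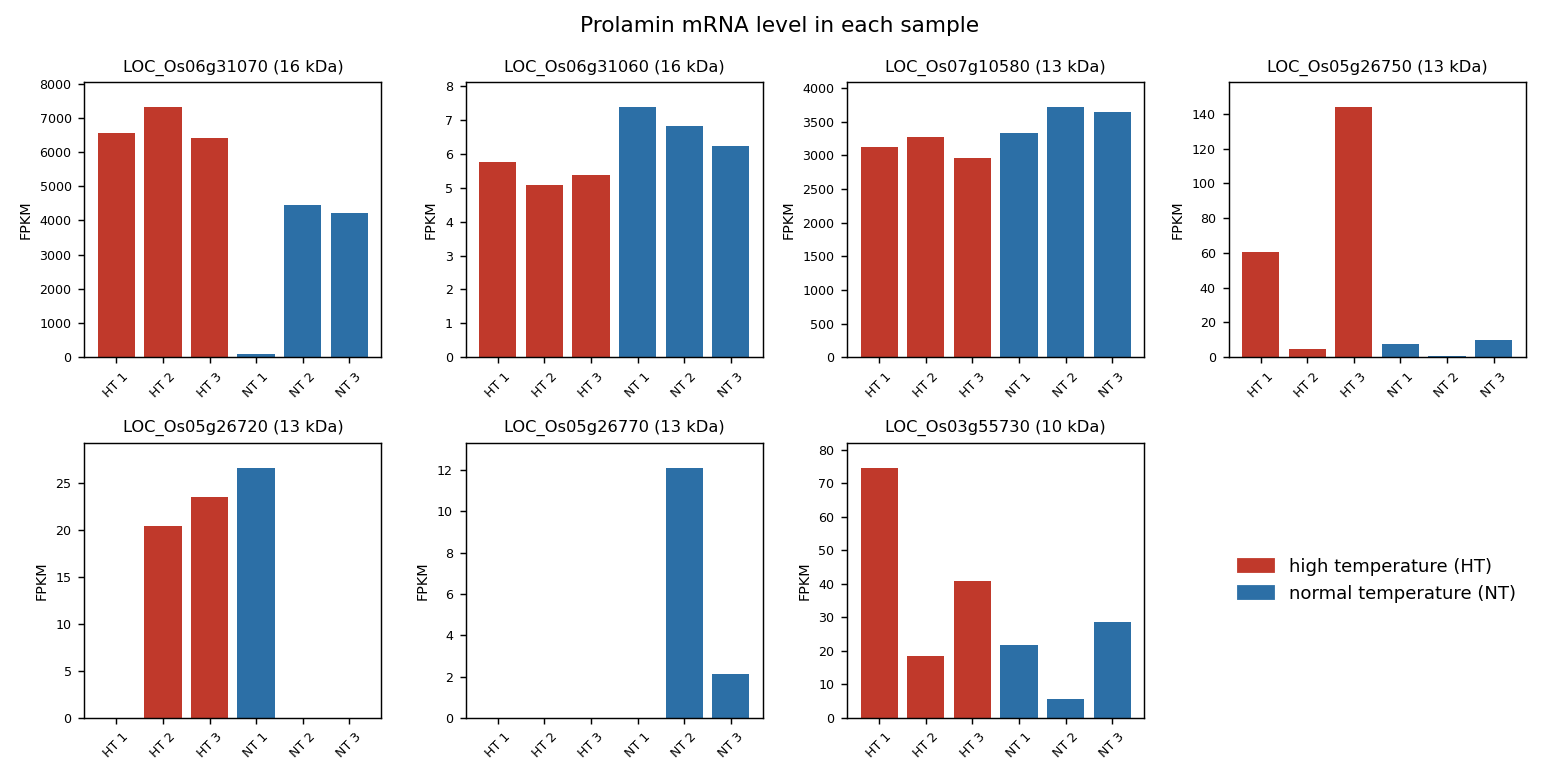
FPKM of the 7 prolamin genes with a row, 1 panel per gene with its own linear axis, 1 bar per sample (HT, high temperature; NT, normal temperature; no error bars, since each bar is 1 sample). LOC_Os06g31070 stands at 95.03 FPKM in NT 1 and at 4212.87 FPKM or more elsewhere, LOC_Os07g10580 is even across samples, and the chromosome 5 genes LOC_Os05g26720, LOC_Os05g26750 and LOC_Os05g26770 change from sample to sample within a group.

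LOC_Os06g31060, the neighbouring 16 kDa gene, was expressed at a far lower level. The high temperature samples held 5.75, 5.09 and 5.36 FPKM and the normal temperature samples 7.37, 6.81 and 6.22 FPKM, again with no overlap of the groups. It was the one prolamin gene that passed the test with all 6 samples, with a log2 fold change of -0.28 and a standard error of 0.08 (limma, adjusted p = 0.0389). That call was lost in 10 of 15 alternative fits, with adjusted p up to 0.115, among them all 3 that rescale the samples and all but 1 of the 6 that leave out a sample. The sum of the 16 kDa class was 99.8% to 99.9% LOC_Os06g31070 in all samples other than normal temperature sample 1, where it was 92.8%.

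LOC_Os07g10580, the abundant 13 kDa gene, was the steadiest of the highly expressed members. The high temperature samples held 3127.88, 3275.52 and 2958.37 FPKM and the normal temperature samples 3337.36, 3715.28 and 3647.96 FPKM. All high temperature samples were lower, with means of 3121 ± 159 and 3567 ± 202 FPKM (SD, n = 3 samples per group). The log2 fold change of -0.19 (95% interval -0.34 to -0.05 before adjustment) missed the threshold (limma, adjusted p = 0.0516). It passed without normal temperature sample 1 (log2 fold change -0.24, adjusted p = 0.0304) and after quantile normalization (log2 fold change -0.36, adjusted p = 0.00723), and it shrank to -0.09 with adjusted p = 0.281 when samples were rescaled without the 100 most abundant genes.

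The 13 kDa genes of the chromosome 5 cluster gave values that came and went between libraries of the same group. LOC_Os05g26750 stood at 60.57, 4.65 and 143.77 FPKM under heat, against 7.68, 0.63 and 9.64 FPKM in the normal temperature samples. Its highest and lowest sample differed 30.9-fold within high temperature and 15.3-fold within normal temperature, and the groups overlapped. The log2 fold change of 2.80 had a standard error of 1.42 and did not pass (limma, adjusted p = 0.188). Single libraries set its size. The log2 fold change was 1.81 without high temperature sample 3 and 1.94 without normal temperature sample 2 (limma, adjusted p = 0.399 for each). It was 4.15 without high temperature sample 2 (limma, adjusted p = 0.0442), the low one of its group, so that 1 pass among the 6 fits rests on removing a low value.

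LOC_Os05g26720 was listed at 0, 20.43 and 23.52 FPKM under heat, against 26.59, 0 and 0 FPKM in the normal temperature samples. LOC_Os05g26770 was above 0 in normal temperature samples 2 and 3 alone, at 12.10 and 2.12 FPKM, and was listed at 0 in the remaining 4 libraries. In no library were both genes above 0. A listed 0 can be a failed estimate, so no fold is given for either gene, and neither passed with all samples (limma, adjusted p = 0.609 for LOC_Os05g26720 and 0.198 for LOC_Os05g26770). Summed, the 3 chromosome 5 genes reached 60.6, 25.1 and 167 FPKM under heat and 34.3, 12.7 and 11.8 FPKM in the normal temperature samples, so the groups overlapped in the sum as well (exact permutation test, two-sided, p = 0.20).

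LOC_Os03g55730, the 10 kDa gene, stood at 74.49, 18.38 and 40.86 FPKM under heat, against 21.66, 5.65 and 28.54 FPKM in the normal temperature samples. The 10 kDa prolamin is a cysteine-rich protein found in the core of the protein bodies. High temperature sample 2 lay under 2 of the normal temperature samples, so the groups overlapped. The log2 fold change of 1.26 had a standard error of 0.76 and a 95% interval of -0.64 to 3.16, and did not pass (limma, adjusted p = 0.257). Leaving out 1 sample moved it to between 0.61, without normal temperature sample 2, and 1.77, without high temperature sample 2, with no pass in any of the 6 fits; it was 0.79 without high temperature sample 1. Its highest and lowest sample differed 4.05-fold in high and 5.05-fold in normal temperature. For comparison, rows with a mean of 5 to 50 FPKM had a median coefficient of variation of 7.25% in high and 7.06% in normal temperature, and this gene had 63.3% and 63.1%.

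In all, of 7 prolamin genes tested, none was called higher and 1 was called lower at an adjusted p under 0.05 (limma), and 2 of them had an unadjusted p under 0.05. Over all 17050 mRNA rows tested, 13% were called higher and 22.8% lower, and 7750 had an unadjusted p under 0.05. Without normal temperature sample 1, 1 prolamin gene was called higher (LOC_Os06g31070) and 2 lower (LOC_Os07g10580 and LOC_Os05g26770), where 10.8% and 18.8% of all rows were called. The call of LOC_Os05g26770 (limma, adjusted p = 0.0447) rests on leaving out its only normal temperature 0. It sets a listed 0 in every high temperature sample against 12.10 and 2.12 FPKM, and a listed 0 can be a failed estimate. The groups did not overlap for 3 of the 7 genes, against 51.7% of all rows tested. With all 6 samples the count for the prolamin genes is therefore no larger than the background in either direction. The median log2 fold change was 1.26 over the 7 genes and -0.08 over all rows tested, and the median gene was LOC_Os03g55730, which did not pass.

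**Figure D2:**
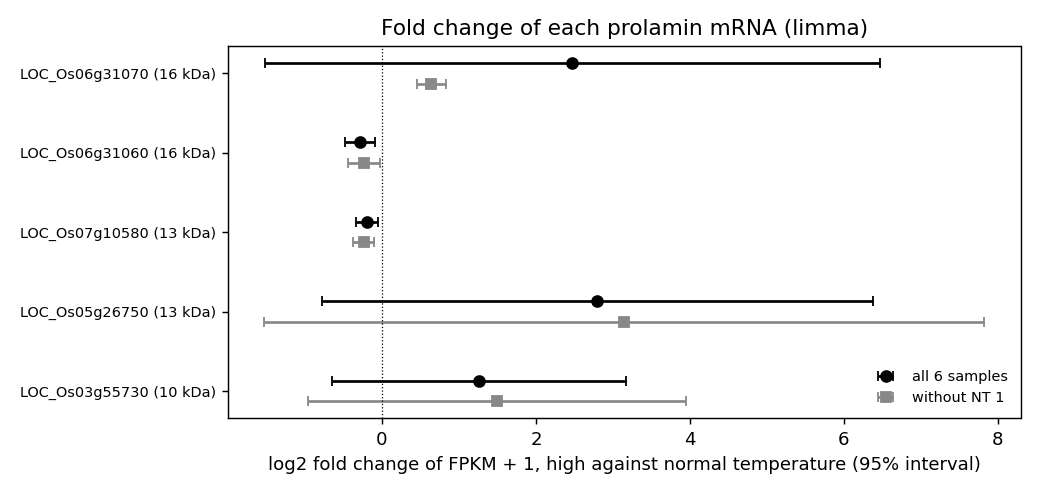
Log2 fold change of FPKM + 1, high against normal temperature, for the 5 prolamin genes above 0 in every library, from limma; bars are 95% intervals before adjustment, black circles use all 6 samples and grey squares leave out normal temperature sample 1. The interval of LOC_Os06g31070 narrows around 0.64 without that sample, LOC_Os06g31060 and LOC_Os07g10580 stay near 0 on the negative side, and the intervals of LOC_Os05g26750 and LOC_Os03g55730 span 0.

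By size class, the 16 kDa sum was higher and, on the deposited scale, the 13 kDa sum lower in every high temperature sample. The 13 kDa sum covers only the 4 of 7 named genes that had a row, and the shares and ratios below use that sum. The 16 kDa genes summed to 6555.78, 7313.94 and 6421.91 FPKM under heat, against 102.4, 4449.47 and 4219.09 FPKM in the normal temperature samples. The 13 kDa genes summed to 3188.45, 3300.6 and 3125.66 FPKM under heat, against 3371.63, 3728.01 and 3659.72 FPKM in the normal temperature samples, a ratio of the means of 0.894 and a log2 ratio of -0.16. That log2 ratio shrank to -0.09 after trimmed-mean scaling and to -0.06 when samples were rescaled without the 100 most abundant genes, each with p = 0.30 (exact permutation test, two-sided). On the deposited scale each of these differences had p = 0.10 by the exact permutation test (two-sided), the smallest that 3 samples against 3 allow, so neither can pass a threshold of 0.05. Without normal temperature sample 1 the ratio of the means was 1.56 for the 16 kDa and 0.868 for the 13 kDa class. The 10 kDa class is the single gene described above (exact permutation test, p = 0.30).

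The sum of all 7 genes was 9819, 10633 and 9588 FPKM under heat, against 3496, 8183 and 7907 FPKM in the normal temperature samples. As a share of all FPKM in a sample this was 2.59%, 2.85% and 2.52% in high and 0.945%, 2.21% and 2.17% in normal temperature. Every high temperature sample lay above every normal temperature sample in both measures (exact permutation test, two-sided, p = 0.10 for each). The ratio of the mean sums was 1.53 with all samples and 1.24 without normal temperature sample 1, so that sample carried a large part of the difference.

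**Figure D3:**
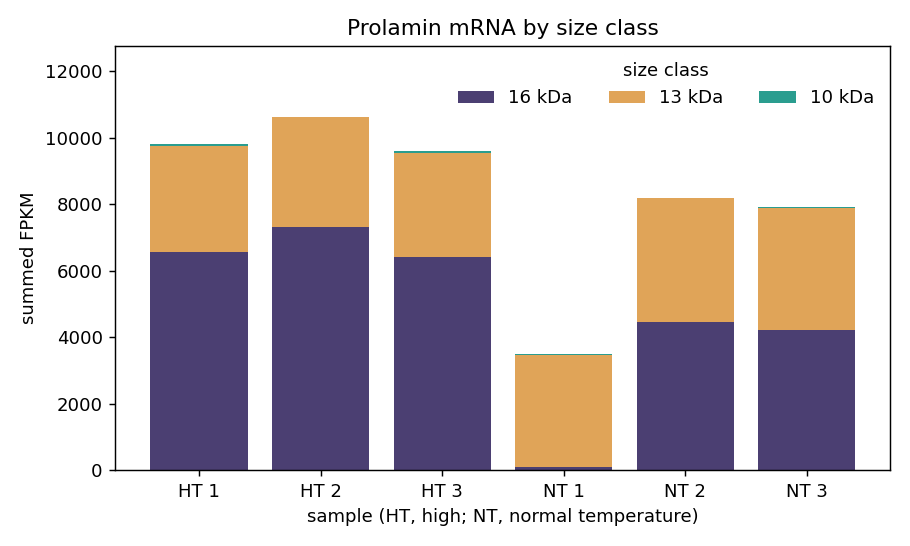
Summed FPKM of the prolamin genes in each sample (vertical axis, linear from 0), stacked by size class; HT, high temperature; NT, normal temperature; each bar is 1 sample, so there are no error bars. The 16 kDa part is larger in the 3 HT samples and almost missing in NT 1, while the 13 kDa part stays between 3126 and 3728 FPKM and the 10 kDa part is barely visible.

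Ratios within a sample do not depend on how libraries were scaled to each other. The 16 kDa to 13 kDa ratio was 2.06, 2.22 and 2.05 in high and 0.0304, 1.19 and 1.15 in normal temperature. Since the sums of the 2 classes already lay on opposite sides of the normal temperature samples, the groups had to separate in this ratio, which is given as a description with no test. The 16 kDa share of prolamin FPKM was 66.8% to 68.8% in high and 53.4% to 54.4% in normal temperature samples 2 and 3, and 2.93% in sample 1.

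Each class was also set against the glutelins of the same sample. Of 9 glutelin genes tested, 7 rose and none fell (limma), beside the 13% and 22.8% of all rows, among them GLUB4 and GLUB5 with log2 fold changes of 1.07 and 1.06, and the list median was 0.86 beside -0.08 over all rows. The count that rose was 5 after quantile normalization and 8 under either other scaling. The 13 kDa to glutelin ratio was 0.0280, 0.0318 and 0.0266 in high and 0.0401, 0.0452 and 0.0479 in normal temperature, lower in each high temperature sample. The 13 kDa sum was lower and the glutelin sum higher in each of these samples, so this separation was fixed as well and is not tested. The 16 kDa to glutelin ratio was 0.0577, 0.0705 and 0.0547 in high and 0.00122, 0.0540 and 0.0552 in normal temperature, and the groups overlapped (exact permutation test, two-sided, p = 0.20). The ratio of all prolamins to glutelins overlapped too, with 0.0864, 0.102 and 0.0817 in high and 0.0415, 0.0993 and 0.103 in normal temperature (p = 0.90 by the same exact test). Its ratio of means was 1.11 with all samples and 0.890 without normal temperature sample 1, so no direction can be given.

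**Figure D4:**
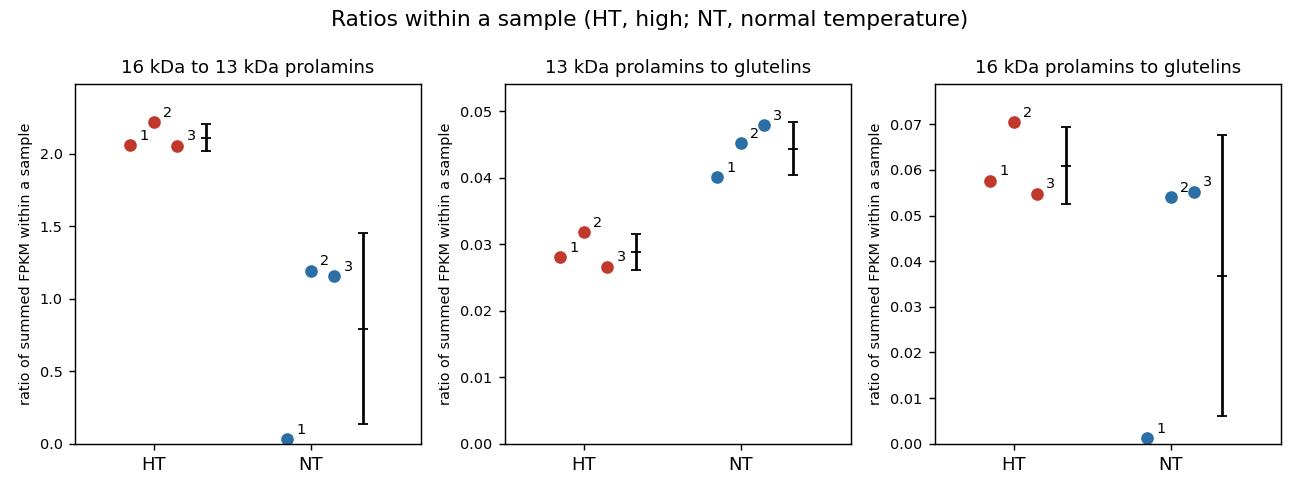
Ratio of summed FPKM within each sample (vertical axes, linear from 0) for 16 kDa to 13 kDa prolamins, 13 kDa prolamins to glutelins and 16 kDa prolamins to glutelins; points are samples with their number, black bars the mean ± SD of 3 samples, HT high and NT normal temperature. The first ratio is above 2 in HT and below 1.2 in NT, the second is below 0.032 in HT and above 0.04 in NT, and in the third NT 3 lies within the range of HT and NT 2, at 0.0540, just under it.

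Values that fell away in single libraries were counted by a fixed rule, a value under 10% of the median of its group where that median is at least 5 FPKM. Among the prolamin genes this applied to 4 of 33 values, or 12.1%, beside 356 of 39234 values, or 0.907%, over all mRNA rows. The 4 were LOC_Os06g31070 in normal temperature sample 1, LOC_Os05g26720 in high temperature sample 1, and LOC_Os05g26750 in high temperature sample 2 and in normal temperature sample 2. They lay in 4 different libraries, but LOC_Os05g26750 was counted in both groups, and values of 1 gene are not independent. The zeros of LOC_Os05g26770, and those of LOC_Os05g26720 in normal temperature, could not be counted, since their group medians were under 5 FPKM. Because LOC_Os06g31070 is so abundant, its drop also made normal temperature sample 1 the lowest in summed prolamin FPKM, at 3496 FPKM. In normal temperature sample 1, 62 of 6703 rows met the rule, or 0.925%, within the 0.716% to 1.19% of the other libraries. LOC_Os06g31070 was the 1 such row among 36 with a group median of at least 1000 FPKM. At that level normal temperature samples 2 and 3 also had 1 such row of 36 each. High temperature sample 2 had 1 of 32, and high temperature samples 1 and 3 had 0 of 32.

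Among the 3 most abundant neighbours of the prolamin genes by locus number, only LOC_Os03g55734 fell away in single libraries. Such values were not counted over all neighbours. Within 500 locus numbers of a member on the same chromosome, 203 other rows were listed, 5 of them with a mean of at least 100 FPKM. The sources used here give these identifiers no name. LOC_Os05g26620, which lies by number inside the chromosome 5 cluster, stood at 429.35, 672.06 and 454.83 FPKM under heat, against 77.71, 74.89 and 107.51 FPKM in the normal temperature samples. It rose with a log2 fold change of 2.56 and a standard error of 0.23 (limma, adjusted p = 0.00102), and still passed when any 1 sample was left out. LOC_Os03g55734, next to the 10 kDa gene by number, was listed at 0, 510.84 and 437.30 FPKM under heat, against 281.43, 356.82 and 0 FPKM in the normal temperature samples. The 2 libraries in which it was at 0 were those with the highest level of LOC_Os03g55730 in each group, 74.49 and 28.54 FPKM. This match was not tested. LOC_Os03g55350 rose from 136 to 183 FPKM on average (limma, adjusted p = 0.00424).

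Regulators and folding proteins that serve storage protein synthesis were read from the same fit. Of 6 regulators tested, 2 fell and none rose, beside 22.8% and 13% of all rows, with a list median of 0.12, and 1 rose under each of the 3 other scalings. RPBF, which binds the prolamin box of storage protein promoters, fell from 149 ± 7.42 to 91.4 ± 1.60 FPKM (SD, n = 3; limma, log2 fold change -0.70). NAC26, a seed transcription factor, fell with a log2 fold change of -0.56. RISBZ1, the bZIP factor that binds the GCN4 motif of these promoters, stood at 30.1 ± 1.43 FPKM under heat and 29.7 ± 10.2 FPKM in the normal temperature samples (limma, log2 fold change 0.07, adjusted p = 0.852). Its normal temperature samples had 23.98, 23.59 and 41.48 FPKM, and without the third the log2 fold change was 0.32 and passed (limma, adjusted p = 0.0208). That pass rests on removing the highest value of its group. Without normal temperature sample 1 or 2 the log2 fold change was -0.06 or -0.07 (limma, adjusted p = 0.888 or 0.86), so no direction is given for RISBZ1. Of 11 genes of folding in the endoplasmic reticulum, 5 rose and 2 fell, beside 13% and 22.8% of all rows, with a list median of 0.22, and the count that fell was 0 after quantile normalization and 1 under either other scaling. PDIL2-3, a disulfide isomerase of the prolamin protein bodies, rose from 64.3 ± 0.909 to 87.6 ± 2.12 FPKM (SD, n = 3; limma, log2 fold change 0.44). BIP1, a chaperone that holds nascent prolamins in the endoplasmic reticulum, rose with a log2 fold change of 0.71, a call lost on leaving out any 1 of the 3 normal temperature samples (limma, adjusted p from 0.057 to 0.068). ERO1, the oxidase that recharges disulfide isomerases, rose with a log2 fold change of 0.36, and calreticulin CRT with 0.30. PDIL1-1, a disulfide isomerase needed for glutelin maturation, fell with a log2 fold change of -0.28, which became 0.01 after quantile normalization.

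Markers of the tissues in the grain were read in the same samples. The 4 starchy endosperm markers GBSSI, AGPS2, SSI and BT1 were all present, and summed to between 1205 and 1297 FPKM under heat and between 3816 and 4060 FPKM in the normal temperature samples. They are starch synthesis genes, and all 4 fell (limma), beside 22.8% of all rows. Of the 5 embryo and aleurone markers, 4 had a row. These summed to between 806 and 841 FPKM under heat and between 114 and 612 FPKM in the normal temperature samples. Of the 4, 2 were called higher and none lower (limma), beside 13% and 22.8% of all rows. RAB16A, a gene of late embryogenesis and water stress, rose from 27.1 ± 1.26 to 150.2 ± 10.8 FPKM (SD, n = 3; limma, log2 fold change 2.42, adjusted p = 3.3e-05). VP1, a seed maturation factor, rose with a log2 fold change of 0.15 (limma, adjusted p = 0.0397), a call lost on leaving out any 1 sample. Most of the sum came from the oleosin OLE16, with 649 to 679 FPKM under heat and 112, 569 and 74.3 FPKM in the normal temperature samples. With all samples OLE16 did not pass (limma, adjusted p = 0.107). Of the fits that leave out a sample, it passed only without normal temperature sample 2, the highest of its group (limma, log2 fold change 2.84, adjusted p = 0.00226). Its log2 fold change was 1.68 without normal temperature sample 1 and 1.38 without sample 3 (limma, adjusted p = 0.245 and 0.236). OSH1, an embryo meristem gene, was at 0.593 and 0.627 FPKM on average and did not pass. OLE16 and OSH1 were chosen for mention after their values were seen. The 3 green pericarp markers summed to between 77.4 and 90.8 FPKM under heat and between 115 and 140 FPKM in the normal temperature samples. Of the 3, 1 was called lower, the chlorophyll-binding protein gene CAB2R (limma, log2 fold change -1.03), and none higher, beside 22.8% and 13% of all rows. Without normal temperature sample 3, CAB1R was called lower too, where 18.5% of all rows were called lower. None of the markers was listed at 0. Their part in the prolamin differences was not tested, and in bulk tissue fewer cells of a type cannot be told apart from less RNA per cell.

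Rows with a profile most like that of each class's leading gene were taken from all mRNA rows with a mean of at least 50 FPKM. The measure was the root mean square difference over the 6 samples of log2(FPKM + 1), each profile less its own mean. For LOC_Os07g10580 the nearest 3 of 632 rows, LOC_Os04g51630, LOC_Os08g37444 and LOC_Os03g37970, lay within 0.04 on the log2 scale. For LOC_Os03g55730 no row came closer than LOC_Os06g05020, at 0.56. For LOC_Os06g31070 the nearest were LOC_Os10g41470 at 0.22 and LOC_Os06g07220 at 0.35, both listed at 0 in normal temperature sample 1, and LOC_Os05g35690 at 0.70, with 34.92 FPKM there against 375.76 and 385.07 FPKM in the other two. The drop of LOC_Os06g31070 in that library dominates its profile, so the measure favours rows that were also low there.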

How the data were processed

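The labels' protocols describe depletion of ribosomal RNA, fragmentation and paired-end sequencing on an Illumina HiSeq. StringTie 1.3.0, HISAT2 2.0.4, FastQC 0.10.1 and cutadapt 1.10 appear in the submitters' processing notes, with no role for each. Genome build, annotation and strand use were not given in the sources used here. Per gene, the authors deposited FPKM, per the file headers, rounded to 2 decimals. Of the ratios of low values to a row's lowest value, 17.7% to 20.0% were whole within 0.1. The lowest value can come from another library of unknown depth, so this check cannot show whether low values are whole reads.

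Tests used limma 3.58.1 in R 4.3.3 on log2(FPKM + 1), with a trended prior and two-sided Benjamini-Hochberg adjustment over the 17050 mRNA rows with a mean of at least 0.5 FPKM, a filter that all 7 prolamin rows passed. This scale understates changes of low genes. Sums and ratios were compared by exact permutation of samples. The script was tested on simulated data. Class-to-class and class-to-glutelin ratios were added after the values were seen. The genes and lists were chosen with earlier results of these data known. All prolamin genes are named. From each list, up to 4 called members are, plus RPBF, RISBZ1, BIP1, PDIL1-1 and PDIL2-3. The 3 most abundant neighbours and the 3 nearest profiles per class are also named. List symbols were paired with identifiers by hand: 37 of 39 had a row, and 20 symbols were found once in the reference gene table (assembly ASM3414082v1), all on the chromosome of the identifier.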

Additional observations from a re-analysis of the deposited data

How the results depend on the processing

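Counts of called prolamin genes were small and moved with the processing. None was called higher and 1 lower with all samples. The count lower was 2 with a pseudocount of 10 or with array weights, and 0 with no filter on low values, with trimmed-mean scaling, or with totals rescaled after removal of the 100 most abundant genes. After quantile normalization the count lower stayed at 1, but the gene called was LOC_Os07g10580 in place of LOC_Os06g31060. Leaving out 1 sample gave 0 to 1 higher and 0 to 2 lower. A replicate block gave 1 higher (LOC_Os05g26750, adjusted p = 0.0317) and 0 lower, and 1657 higher and 2910 lower over all rows against 2222 and 3887 without it. Over all rows no pairing of the samples by number was seen, though 3 samples per group cannot exclude one. Deviations of same-numbered samples correlated at -0.02 to 0.004, and no sample correlated best with its own number. Of the prolamin genes, only LOC_Os05g26750 and LOC_Os03g55730 were lowest in sample 2 of both groups. No prolamin gene changed sign in any of the 15 alternative fits.

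The class sums kept their sign under every alternative run, but not their size or separation: the log2 ratio of the 13 kDa sum went from -0.16 to -0.09 with trimmed-mean scaling and -0.06 after the rescaling, where the groups overlapped, and that of the 16 kDa sum from 1.21 to 0.64 without normal temperature sample 1. The log2 ratio of the prolamin to glutelin ratio was 0.15, turned to -0.20 with group medians, and ranged from -0.17 to 0.36 when 1 sample was left out. The cause of these shifts was not tested. Unknown depth gives no detection limit for the rows listed at 0.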

Other observations

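In normal temperature sample 1, LOC_Os06g31070 was the row, of 30485, furthest below the mean of the other two normal temperature samples, with a difference of -4232.73 FPKM. By the same measure the largest excess was in LOC_Os05g41970, with 10535.96 FPKM against 0 and 10276.74 FPKM. The glutelin GLUA1 (LOC_Os01g55690) followed, with 19438.33 against 19108.40 and 10610.95 FPKM. In both rows sample 1 lay close to 1 of the other normal temperature samples. The value that stood apart was that of sample 2 for LOC_Os05g41970 and of sample 3 for GLUA1, so neither is a gain particular to sample 1.

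When normal temperature sample 1 was left out of the likeness measure, an alternative chosen after seeing the data, the rows nearest to LOC_Os06g31070 over 5 samples were LOC_Os07g11920 at 0.04, LOC_Os03g46770 at 0.05 and LOC_Os06g21890 at 0.05 on the log2 scale. LOC_Os03g46770 stood at 3535.85, 4113.46 and 3594.65 FPKM under heat, against 2523.96, 2595.32 and 2504.38 FPKM in the normal temperature samples.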
